A study of Sus scrofa with 44 samples.

Results

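At 33 days post coitus (E33), fetal pig back muscle carried 619 m6A peaks in 524 genes that had no peak at E60, E70 and E95. They were chosen from the deposited peak lists as every E33 peak of a gene with no row in the lists of those 3 later stages, and they make up 7.13% of the 8685 E33 peaks and 11.0% of the 4767 genes with an E33 peak. Of the 524 genes, 362 (408 peaks) still had a stage mean of at least 1 TPM (relative transcript abundance, corrected for transcript length and library size) at E60, E70 and E95 and are called still-expressed genes. Another 161 genes (210 peaks) were below 1 TPM at E60, E70 or E95: 75 of them at all 3 stages, 30 at 2 of them and 56 at 1. Of these 161 genes, 21 were already below 1 TPM at E33, 13 of them below 0.1 TPM. A single gene with 1 peak has no row in the expression files. The other 4243 genes with an E33 peak kept a peak at E60, E70 or E95, hold 8066 E33 peaks, and serve as the comparison. The choice used the E33, E60, E70 and E95 peak lists and the TPM of E60, E70 and E95, so these are described without a test, while E40, E50 and the kidney cell lists did not enter it.

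The series holds 44 pig samples of methylated RNA immunoprecipitation sequencing (MeRIP-seq), which compares RNA pulled down by an antibody against N6-methyladenosine (m6A) with input RNA. The design was to follow m6A through muscle formation before birth. From longissimus dorsi, a back muscle, rRNA-depleted RNA was taken at 33, 40, 50, 60, 70 and 95 days post coitus, with 3 input and 3 immunoprecipitated samples per stage. For PK15, a pig kidney cell line, each of the polyA and rRNA-depleted preparations gave 2 input and 2 immunoprecipitated samples. The labels name no treatment, strain or genotype and do not say whether the 3 samples of a stage are separate fetuses, so p-values measure only the spread between these samples. There is 1 peak list per stage and per PK15 preparation, so no peak has a replicate, and whether samples were pooled before peak calling is not given in the sources used here. TPM values are relative within a library, which leaves the depth unknown. Of 27 genes that mark muscle precursors and muscle fibres, 21 were in the expression files, and 0 of these had a mean below 1 TPM at E33.

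m6A is a methyl mark on adenosines inside messenger RNA. A nuclear complex with METTL3 and METTL14 writes it, mostly in the sequence context whose core is GGAC followed by U, FTO and ALKBH5 can remove it, and reader proteins such as the YTH and IGF2BP families bind marked transcripts and alter their decay, translation or stability. Marks are known to gather in long internal exons and around the stop codon. In forming muscle, primary fibres arise first and secondary fibres form around them, while precursors of other tissues of the trunk, nerves and vessels lie nearby.

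The letters below show the GGACT (DNA letters, in capitals) nearest to the midpoint of the strongest E33 peak. A fixed rule named 14 genes for this (those of the m6A and muscle lists and those with the highest fold), of which 8 held GGACT in that peak and 6 held the whole 25-base window inside a peak block. Genes added to show the patterning, neural and guidance members, chosen after their values were seen, are GRIN3A, HOXC5, EN1 and EFNB3. All sequences were read from RefSeq Sscrofa11.1 and run 5′ to 3′ on the strand of the gene. The windows lie at chr1:236472469-236472493 (plus strand, near the stop codon of RGP1), chr12:58165186-58165210 (plus, near a stop codon), chr3:113876587-113876611 (plus, coding sequence of ADCY3), chr8:105369988-105370012 (minus, 5′ UTR of NDST3), chr7:61893020-61893044 (minus, near the stop codon of SSTR1), chr1:243263598-243263622 (minus, near the stop codon of GRIN3A), chr5:19246312-19246336 (plus, coding sequence of HOXC5), chr15:24403410-24403434 (minus, near the stop codon of EN1) and chr12:52975245-52975269 (plus, near the stop codon of EFNB3).
RGP1: ctcagcacctGGACTctagtaggac
COX10 and HS3ST3B1: tgaccggccaGGACTtcggctggga
ADCY3: ggggtgggccGGACTcatgaaatct
NDST3: cggacccgggGGACTtgaaatacgg
SSTR1: acagcgtggaGGACTtccagcccga
GRIN3A: aggacaaatcGGACTtgtgagccct
HOXC5: gcagcccgccGGACTgagccagcca
EN1: catggcgcagGGACTgtacaaccac
EFNB3: ggacacatgtGGACTtggtctgatg
A match to these letters is a description of the window and does not show which adenosine was methylated. The entries of COX10 and HS3ST3B1 are a shared stretch listed under both genes, so they are not 2 independent members. RefSeq places this stretch (chromosome 12, 58165079 to 58165321) in HS3ST3B1 (58126477 to 58168407) and past the end of COX10 (58011831 to 58110575). HS3ST3B1, a heparan sulfate sulfotransferase, reached at most 0.00938 scaled TPM (the scaling is given with the expression results) in any library, while COX10, a factor for heme A synthesis, was at 3.46 to 3.86 scaled TPM at E33 and had a mean of at least 1 TPM at every late stage. In all, 20 of the 619 peaks overlap an E33 peak listed for another gene, 12 of them a peak of another of the 524 genes.

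GGACT was no more frequent at the centre of these peaks than at the centre of other E33 peaks. In the 100 exonic bases around the midpoint, for peaks at least that long, GGACT was present in 65 of 388 peaks (16.8%, Wilson 95% interval 13.4% to 20.8%), against 1126 of 6826 peaks (16.5%) of genes with a late peak. Its reverse complement AGTCC, which reads GGACT on the opposite strand, was in 7.99% and 8.01% of the same windows, and the reversed letters TCAGG in 9.79% and 10.7%. Both sets of peaks thus held GGACT more often than these control letters. Over whole peaks, 133 of 610 (21.8%) held GGACT, against 31.8% of the comparison peaks, which are longer, and per kilobase the numbers were 1.73 and 1.57. All intervals for shares of peaks or genes cover counting error only, and neighbouring peaks of a gene are not independent.

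The peaks were short and mostly the only peak of their gene. Their exonic length had a median of 121 bases, against 211 for the comparison, and the median log10 of the authors' p-value was -7.27 against -15.1. In 455 of 524 genes (86.8%) the E33 peak was the only peak, against 2344 of 4243 (55.2%); 52 genes had 2 peaks and 17 had 3 or more. Fold enrichment, the authors' ratio of immunoprecipitated to input signal, had a median of 2.91 in still-expressed genes, 4.01 in genes below 1 TPM and 3.52 in the comparison. A fold of at least 10 was found for 56 of the 619 peaks (9.05%) and for 2.39% of the comparison peaks. These values come from the list that chose the members and are a description.

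Loss of the peak, meaning no entry at E60, E70 and E95, went with a low level later on, but not in every gene. Among genes with an E33 peak, the share without a late peak was 48.9% (45 of 92) where the lowest late stage mean was under 0.1 TPM and 46.6% (116 of 249) from 0.1 to 1 TPM. It was 23.1% from 1 to 2 TPM, 10.8% from 2 to 5 TPM, 5.38% from 5 to 10 TPM and 2.72% (8 of 294) at 50 TPM or more. By number of E33 peaks, the share was 16.3% in genes with 1 peak, 4.80% with 2, 2.66% with 3 and 1.15% with 4 or more. By the gene's highest fold it was 19.0% up to the lower quartile, 8.21% from there to the median, 6.37% from the median to the upper quartile and 10.4% above it. The genes just inside the 1 TPM threshold by their lowest late stage mean were NHERF1 (1.01 TPM), ZNF892 (1.03 TPM) and BUB1B (1.04 TPM), and those just outside it were OTULINL (0.962 TPM), NTRK2 (0.955 TPM) and TMEM51 (0.947 TPM).

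**Figure D1:**
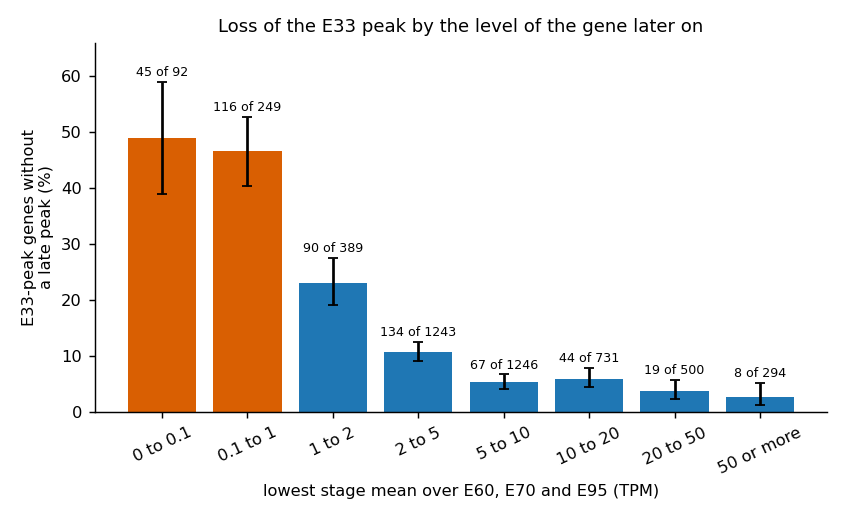
Share of genes with an E33 peak that had no peak at E60, E70 and E95 (vertical axis, %), by the lowest of the 3 late stage means (horizontal axis, TPM); orange bars are below 1 TPM, blue bars at or above it, error bars are Wilson 95% intervals, and the labels give genes without a late peak of all genes in the bin. The share falls from 48.9% below 0.1 TPM to 2.72% at 50 TPM or more.

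Most of these genes also had no listed peak at E40 and E50, stages that the choice did not use. Of the 524 genes, 45 (8.59%, interval 6.48% to 11.3%) had a peak at E40, beside 60.4% of all genes with an E33 peak, and 90 (17.2%, 14.2% to 20.6%) had one at E50, beside 76.5%. Either stage held a peak for 110 genes (21%, 17.7% to 24.7%; 78.8% of all genes with an E33 peak and 86.0% of the comparison): 25 at both stages, 20 at E40 only and 65 at E50 only. The other 414 genes had a peak at E33 and at no other muscle stage. The share was 22.1% (80 of 362) in still-expressed genes and 18.6% (30 of 161) in genes below 1 TPM, with overlapping intervals. At like late levels the gap to the comparison stayed wide. With a lowest late stage mean of 1 to 5 TPM, which holds most of the still-expressed genes, 25.4% (57 of 224) of them and 81.6% of comparison genes had a peak at E40 or E50, and at 10 to 20 TPM 22.7% (10 of 44) and 86.9%. At 5 to 10 TPM, 14.9% (10 of 67) of still-expressed members and 89.4% of comparison genes had a peak at E40 or E50, and at 20 TPM or more 11.1% (3 of 27) and 90.7%. More of the genes had a peak at E50 than at E40, and the E40 list is also the shortest of the 6. The bins match the late level only. Members had fewer and shorter peaks with weaker p-values, and the comparison genes have a later peak by definition. Whether a missing entry is a lost mark or a weak peak that was not called was not tested.

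In PK15 kidney cells most of the genes did carry a peak. Of the 524 genes, 370 (70.6%, 66.6% to 74.3%) had a peak in either PK15 list, beside 85.0% of all genes with an E33 peak and 86.8% of the comparison. The polyA list held a peak for 347 of the 524 genes (66.2%), against 83.1% of the comparison. The rRNA-depleted list, of the preparation used for muscle, held one for 244 (46.6%, 42.3% to 50.8%), against 76.9%. Still-expressed genes had a PK15 peak in 286 of 362 cases (79.0%, 74.5% to 82.9%), and genes below 1 TPM in 83 of 161 (51.6%, 43.9% to 59.1%), so these groups differed by more than counting error. At the level of positions, 355 of the 619 peaks (57.4%) overlapped a PK15 peak by at least 1 base, against 78.4% of the comparison peaks. Expression in PK15 was not analysed here, so a gene without a PK15 peak may not be transcribed there.

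**Figure D2:**
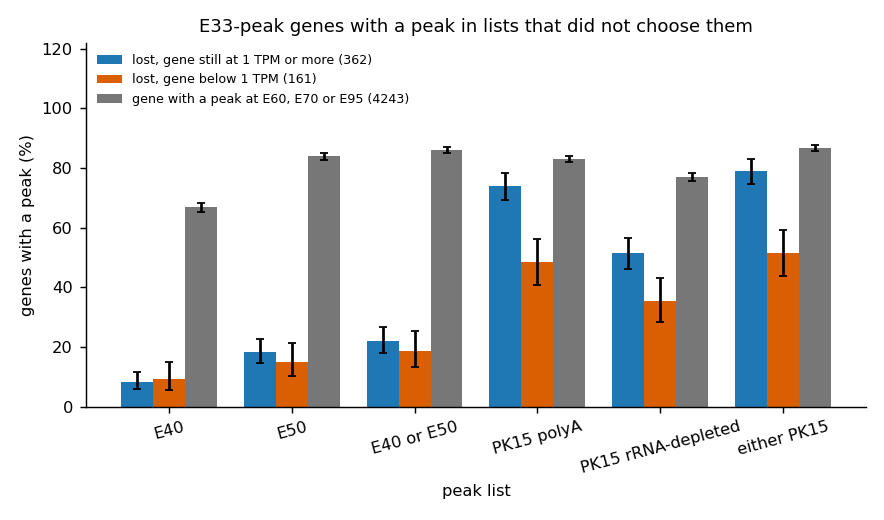
Share of genes with a peak (vertical axis, %) in the E40, E50 and PK15 lists, none of which chose the genes; blue bars are the 362 still-expressed genes, orange bars the 161 genes below 1 TPM, grey bars the 4243 genes with a late peak, and error bars are Wilson 95% intervals. Blue and orange bars stay at or under 22.1% in muscle at E40 and E50, and blue bars reach 79.0% in PK15.

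Along the transcript, the peaks lay near the stop codon more often than the comparison peaks. Of 610 peaks on assembled chromosomes, 157 (25.7%, 22.4% to 29.4%) had their midpoint within 200 transcript bases of the stop codon, against 18.6% (17.8% to 19.5%). Coding sequence away from the stop codon held 313 (51.3%, 47.3% to 55.3%), against 62.2%, and the 5′ UTR held 41 (6.72%, 4.99% to 8.99%), against 3.55%. The 3′ UTR share was 9.02% against 9.83%. Still-expressed genes (25.8% near the stop codon) and genes below 1 TPM (25.4%) had much the same distribution. Shares are per peak and were not matched for the number of peaks per gene or for peak length, in which members and comparison differ.

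**Figure D3:**
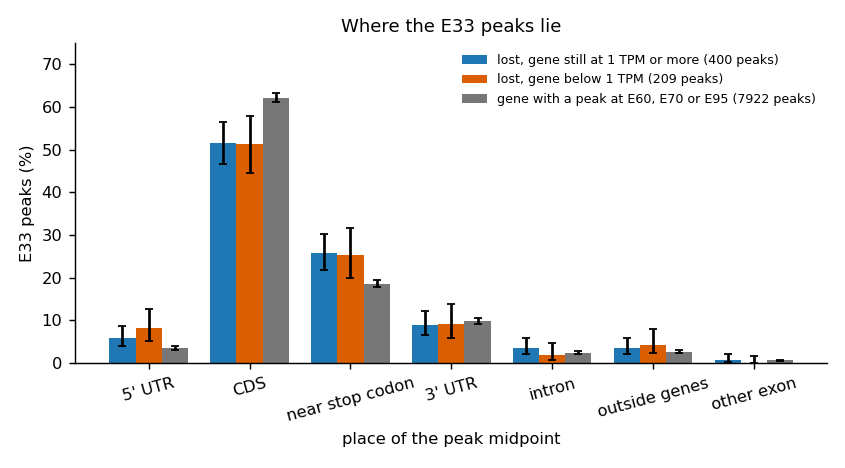
Share of E33 peaks (vertical axis, %) by the place of the peak midpoint in RefSeq transcripts, for still-expressed genes (blue, 400 peaks), genes below 1 TPM (orange, 209 peaks) and genes with a late peak (grey, 7922 peaks); error bars are Wilson 95% intervals. Near the stop codon the blue and orange bars stand at 25.8% and 25.4% and the grey bar at 18.6%.

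Expression of the genes themselves was compared on a scaled TPM, since a gene without a symbol (ENSSSCG00000032395) took 37.4% to 72.4% of the TPM of a library and another (ENSSSCG00000032599) took 17.3% in E40 replicate 2 and 14.4% in E50 replicate 3. Each library was divided by its median ratio to the geometric mean of all libraries, and log2 changes are of scaled TPM + 1, fitted with limma over 18 libraries and 13334 genes; a gene was called when its adjusted p (Benjamini-Hochberg) was under 0.05. Of the 524 genes, 474 had a mean of at least 1 TPM over all libraries and were tested, a filter that genes high at E33 alone can pass. At E40, 181 of the 474 (38.2%) were called against E33, 9 higher and 172 lower, beside 21% of all genes tested (10.1% higher, 10.9% lower); the median log2 change was -0.32, against -0.00 for all genes. The E33 input also served as the background of the E33 peaks, so this contrast is not fully separate from the choice. With TPM as deposited, which moves the median of all genes to -0.59, the count was 107 (1 higher, 106 lower), beside 4.87% of all genes (0.21% higher, 4.66% lower), and 98 genes were called on both scales. Leaving out E33 replicate 3 gave 112, beside 1646 of all genes, and leaving out E40 replicate 1 gave 114, beside 1636.

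Between E40 and E50, the pair of stages outside the choice, few genes were called. The count was 15 of 474 (3.16%), 2 higher and 13 lower at E50, beside 1.54% of all genes tested (0.945% higher, 0.6% lower), with a median log2 change of -0.10 against -0.00. Still-expressed genes gave 5 of 362 (1.38%, 2 higher and 3 lower). Genes below 1 TPM gave 10 of 112 (8.93%, 0 higher and 10 lower). The latter were grouped by a low level at E60, E70 or E95, so their fall before E60 is not fully separate from that grouping. With TPM as deposited 0 members were called with limma, beside 0.0075% of all genes, a single gene that was lower. At an unadjusted limma p under 0.05 this scale gave 39 members (8.23%) and 367 of all genes (2.75%). A fit of these 6 libraries alone called 0 members, beside 10 of all genes. It gave 72 members (15.2%) and 1312 of all genes (9.84%) at an unadjusted limma p under 0.05. Without E40 replicate 2 and E50 replicate 3 there were 2 members called, beside 37 of all genes. The member count ran from 4 without E50 replicate 1 (54 of all genes) to 25 without E50 replicate 2 (365 of all genes). It was 6 without E40 replicate 2, E40 replicate 3 or E50 replicate 3, each left out in turn, beside 102, 88 and 64 of all genes.

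From E33 to E60, a contrast the choice used, 219 of 474 genes (46.2%) were called, 7 higher and 212 lower, beside 25% of all genes tested (12.6% higher, 12.5% lower), and nothing is read from this count. Among the 362 still-expressed genes 134 were called, 6 higher and 128 lower, and 228 (63.0%) were not called. Of the 112 tested genes below 1 TPM, 85 were called, 1 higher and 84 lower. With TPM as deposited the count over the 474 genes was 112 (2 higher, 110 lower), beside 5.17% of all genes (1.46% higher, 3.71% lower). In bulk tissue, fewer cells of a type and less RNA per cell cannot be told apart. Over the member genes in the expression files, the median log2 level was 2.83 to 2.92 in the 3 E33 libraries and 1.99 to 2.09 in the 3 E95 libraries, with no overlap. These genes were chosen for an E33 peak and no E95 peak. Other genes were not compared in this way, so nothing is read from this gap either.

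**Figure D4:**
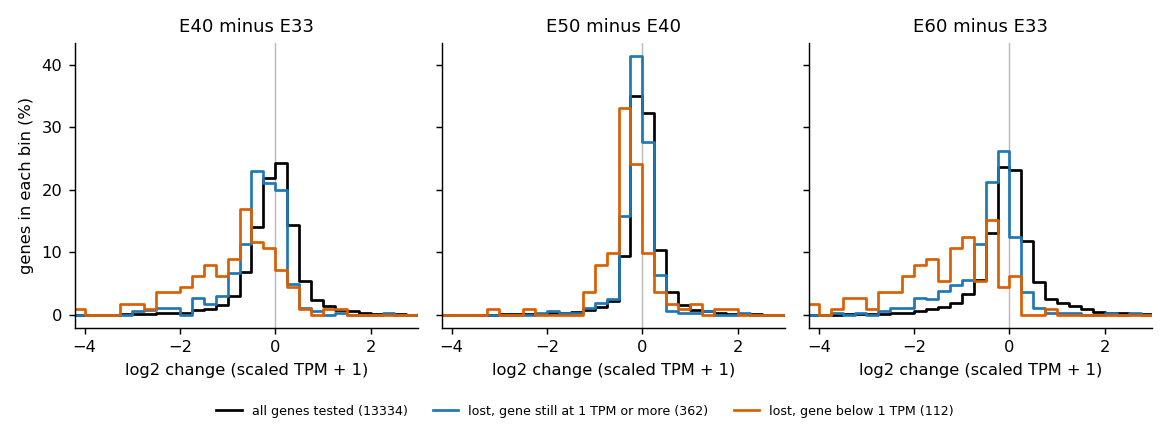
Distribution of log2 changes of scaled TPM + 1 (horizontal axis) for E40 minus E33, E50 minus E40 and E60 minus E33, as the percentage of genes in each bin (vertical axis); black lines are all 13334 genes tested, blue lines the 362 still-expressed genes and orange lines the 112 tested genes below 1 TPM. In the outer panels the orange lines hold a larger share of their genes at the left than the blue and black lines do, and in the middle panel all lines peak within 0.5 of 0, the orange line left of the others.

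Among m6A regulators, 3 of the 17 with an E33 peak (17.6%, beside 11.0% of all genes with an E33 peak) were in this set, and all 3 are readers or RNA-binding proteins linked to m6A. IGF2BP1, an oncofetal reader that stabilises bound transcripts, had 2 E33 peaks in coding sequence (highest fold 1.84), and the stronger of them overlapped a peak at E40 and at E50 by 59 bases. Its scaled TPM was 21.8, 21.1 and 23.6 at E33, 12, 14.7 and 12.2 at E40, 6.23, 6.62 and 9.01 at E50, 3.99, 5.04 and 5.67 at E60, 2.61, 2.31 and 2.27 at E70 and 0.301, 0.677 and 0.778 at E95. The libraries of each stage lay below all libraries of the stage before. At E40 against E33 it fell by 0.73 (SE 0.15, limma adjusted p 0.00305; with TPM as deposited by 1.43, adjusted p 0.0430), and at E50 against E40 by 0.77 (SE 0.15, limma adjusted p 0.0200; 0.769 as deposited). The step at E50 did not pass without E40 replicate 2 or 3 or without E50 replicate 1.

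IGF2BP2, a paralog with a like role, fell less and stayed expressed. It had 2 E33 peaks (highest fold 2.77), the stronger in the 3′ UTR and overlapping an E50 peak by 91 bases and a PK15 peak by 211 bases. Its scaled TPM was 21.7, 23.3 and 20.9 at E33, 20.6, 18.3 and 22.2 at E40, 15.6, 17.6 and 13.7 at E50, 11.9, 11.1 and 11.6 at E60, 10.1, 8.68 and 8.24 at E70 and 5.83, 6.85 and 8.77 at E95. Neither step passed the test (E40 against E33 log2 change -0.10, limma adjusted p 0.595; E50 against E40 -0.37, adjusted p 0.192). ELAVL1, a ubiquitous RNA-stabilising protein, stayed expressed: a peak of fold 3.83 at E33 overlapped a PK15 peak by 121 bases and none at E40 or E50, while scaled TPM ran from 14.2 to 15.9 at E33 and from 12.3 to 15.5 at the 3 late stages. The scaled means were 15.2 at E33 and 13.9, 13.7 and 13.2 at E60, E70 and E95, and the means as deposited 25.5 TPM at E33 and 9.21 TPM at E95. Its log2 change at E40 was -0.22 (SE 0.09, limma adjusted p 0.101).

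Of the 14 muscle genes with an E33 peak, 1 was in the set (7.14%, beside 11.0% of all genes with an E33 peak): ACTA1, the skeletal actin of the thin filament, which rose through development. Its E33 peak near the stop codon was weak (fold 1.43, 61 bases) and overlapped no E40, E50 or PK15 peak. Scaled TPM was 385, 350 and 448 at E33, 580, 573 and 561 at E40, 1535, 1139 and 1691 at E50, 1595, 2992 and 2339 at E60, 4200, 3918 and 5085 at E70 and 4604, 8604 and 5476 at E95. The 3 libraries of E50 lay above all libraries of E40, and the step of 1.33 (SE 0.25) passed on this scale (limma adjusted p 0.0182) but not as deposited (0.85, adjusted p 0.769), nor when any library of these stages other than E50 replicate 2 was left out. DDIT4L, an inhibitor of mTOR signalling, was also still expressed at a rising level, from 3.77, 4.79 and 4.80 scaled TPM at E33 and 5.35, 2.98 and 5.44 at E40 to 12, 10.2 and 10.8 at E50 and 79.4, 76.7 and 75 at E95. At E50 against E40 it rose by 1.14 (SE 0.18, limma adjusted p 0.00711; 0.769 as deposited). Its E33 peak had a fold of 13.2 and overlapped a PK15 polyA peak over all 121 bases.

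Few still-expressed genes kept or raised their level in this way. The E33 peaks and the late TPM entered the choice. The comparison genes were not matched on late level or held to 1 TPM, so the shares are only a description. The stage means at E60, E70 and E95 all reached the E33 mean in 33 of 362 still-expressed genes (9.12%) on scaled TPM, against 33.0% of the comparison, and in 5 (1.38%) with TPM as deposited, against 4.83%. The 5 genes that did so on both scales were DDIT4L, SETD6 (a lysine methyltransferase), KLHDC2 (a substrate receptor of a ubiquitin ligase), SPAG5 (a mitotic spindle protein) and ACTA1. SETD6 and KLHDC2 were named after their values were seen. SPAG5 was near 0 TPM in 2 E33 libraries and at 0.434 scaled TPM in the third, and its 60-base E33 peak is also listed for a neighbouring gene (ENSSSCG00000017759), so which gene the peak belongs to is uncertain.

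Among still-expressed genes with a symbol, the 6 with the highest E33 fold each had a single E33 peak. TLCD3A (fold 22.8), RGP1 (18.5), SNX24 (18.3), COX10 (17.7), ADCY3 (15.7) and ZNF394 (15.5) were these genes. The peak midpoint of TLCD3A lay in a RefSeq intron and that of ZNF394 outside RefSeq genes, and the COX10 entry lies past the end of COX10. The authors' p-values were 1.1e-06 for RGP1, 1.3e-06 for SNX24, 1.1e-05 for ADCY3 and 1.3e-05 for ZNF394, weaker than the set's median log10 of -7.27. For TLCD3A and COX10 they were stronger, at 2.9e-08 and 3.2e-16. RGP1, part of an exchange factor for Rab6 at the Golgi, was at 9.65, 9.25 and 13.7 scaled TPM at E33, 6.60, 10.3 and 7.79 at E40, 9.69, 11.5 and 10.7 at E50, 9.22, 8.66 and 8.04 at E60 and 8.17, 12.6 and 7.85 at E95. All E60 libraries were below those of E33, while the ranges of E40, E50 and E95 overlapped that of E33. As deposited its mean was 18.7 TPM at E33 and 6.49 TPM at E95, and the E40 change of -0.36 did not pass (SE 0.18, adjusted p 0.174 in limma). ADCY3, an adenylate cyclase that makes cyclic AMP, stood at 3.78, 3.18 and 3.54 at E33 and 3.21, 3.28 and 3.77 at E60 and was lower at E95 (2.34, 1.60 and 1.85). TLCD3A fell by 0.89 at E40 (SE 0.23, limma adjusted p 0.0144; 1.55 as deposited, adjusted p 0.0242), and this did not pass without E40 replicate 1 or without E40 replicate 3. For all 6 genes the E33 peak overlapped a PK15 peak, and only TLCD3A had a peak in another muscle stage, at E50, which overlapped the E33 peak by 1 base.

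Among genes below 1 TPM with a symbol, the highest folds were those of HARBI1 (19.6), HS3ST3B1 (18.3), NDST3 (18.1) and SSTR1 (17.7). SSTR1, a receptor for the peptide hormone somatostatin, was at 39.6, 30.2 and 29.4 scaled TPM at E33 and at 8.44, 20 and 5.07 at E40, was listed at 0 in 2 of 3 libraries at E50 and E95, and reached at most 7.29 in any library from E50 on. The E33 libraries lay above all others; the E40 change of -1.66 (SE 0.72) did not pass (limma adjusted p 0.114; 0.0296 as deposited). NDST3, a heparan sulfate sulfotransferase of the nervous system, was low throughout, at 0.794, 0.883 and 0.820 at E33 and 0.201, 0.218 and 0.178 at E95. The highest fold of all 619 peaks, 68.3, belonged to ENSSSCG00000038226 on chromosome Y (4655230 to 4663138), a gene without a symbol here at 1.40, 3.76 and 4.30 TPM as deposited at E33. It was singled out after its value was seen.

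A few genes with many peaks were also in the set, 5 of the 434 genes with 4 or more E33 peaks. SLITRK2, a synaptic adhesion protein, and GRIN3A, a glutamate receptor subunit, had 6 E33 peaks each, and AFAP1, an actin-filament adaptor, had 4. A peak of AFAP1 (fold 3.81) overlapped an E40 peak by 91 bases. This peak and the strongest of AFAP1 (fold 6.24) had their midpoints outside RefSeq genes. All 6 peaks of SLITRK2 (folds 2.52 to 13.6) overlapped no peak at E40, E50 or in PK15. Its scaled TPM was 20.2, 21.9 and 21.5 at E33, 4.04, 12.5 and 6.26 at E40, 2.00, 3.84 and 0.791 at E50 and 1.41, 1.67 and 1.70 at E70. E40 replicate 2, the library high in ENSSSCG00000032599, was the highest of its stage, and it fell short of every E33 library; at E40 it moved by -1.49 (SE 0.39; adjusted p 0.0162 in limma, and 0.00802 as deposited), a change that did not pass without E33 replicate 3, E40 replicate 1 or E40 replicate 3, each left out in turn. GRIN3A fell by 1.47 at E40 (SE 0.15, limma adjusted p 1.41e-05; as deposited by 2.02, adjusted p 0.00157), and the strongest of its peaks (fold 6.17) overlapped an E50 peak by 91 bases.

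Of the homeobox and patterning genes, which set position along the body and limb, 8 of the 30 with an E33 peak (26.7%, beside 11.0% of all) were in the set: EN1, HOXA10, HOXB8, HOXC10, HOXC5, HOXD4, LBX1 and PRRX2. EN1, a homeobox factor of dorsal tissue, was at 30.9, 34.7 and 41.8 scaled TPM at E33, 4.67, 25.6 and 11.8 at E40, 9.16, 6.99 and 9.50 at E50, and 4.79, 9.19 and 9.09 at E60. All E40 libraries were below those of E33, with E40 replicate 2 again the highest, and the change of -1.55 (SE 0.40) passed (limma adjusted p 0.0144; as deposited -2.28, adjusted p 0.00441), but not without E33 replicate 3 or without E40 replicate 1. HOXC5 fell by 1.52 (SE 0.40, adjusted p 0.0164 in limma; 0.0144 as deposited), which did not pass without E33 replicate 1 or 3 or without E40 replicate 1 or 3. PRRX2, a limb and skin mesenchyme factor, fell by 1.72 at E40 (limma adjusted p 2.86e-05). It and LBX1 were named after their values were seen. The part of ENSSSCG00000032599 in the values of E40 replicate 2 was not tested. LBX1, a factor of migrating muscle precursors, had a mean of 5.21 scaled TPM at E33, 7.27 at E40, 8.17 at E60 and 10.6 at E95 (8.56 at E33 and 7.41 at E95 as deposited); the step at E40 did not pass (limma log2 change 0.42, adjusted p 0.350), and E95 against E33 was not tested. Of 43 patterning genes tested, whether or not they had a peak, 26 were lower and 3 higher at E40 (beside 10.9% lower and 10.1% higher of all genes), and 27 lower and 1 higher at E60 (beside 12.5% and 12.6%); the medians were -1.17 and -1.25, against -0.00 and -0.01 for all genes. With TPM as deposited, 25 were lower and 0 higher at E40 (beside 4.66% and 0.21% of all genes), with a median of -1.84 against -0.59. The counts at E60 on this scale were 23 lower and 0 higher, beside 3.71% and 1.46% of all genes. HOXD4 and a neighbouring gene (ENSSSCG00000015985) share their E33 peak, and members of HOX clusters overlap, so reads there may be split between genes.

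Wnt and Hedgehog signalling, which pattern somites and start the muscle program, gave 7 of the 36 genes with an E33 peak (19.4%, beside 11.0% of all): the ligands WNT2 and WNT5A, the agonist RSPO2, the receptors FZD2 and ROR1, the Hedgehog co-receptor CDON and the antagonist SFRP1. SFRP1 had 4 E33 peaks, of which the strongest (fold 3.20, near the stop codon) overlapped an E40 peak by 150 bases. Its scaled TPM was 26.1, 36.2 and 32.5 at E33, 5.50, 6.71 and 4.91 at E40, 2.47, 3.54 and 3.12 at E50 and 1.17, 1.37 and 1.71 at E60. There was no overlap between E33 and E40, and the fall of 2.28 (SE 0.19) passed on both scales (limma adjusted p 3.09e-06, and 0.00017 as deposited). FZD2 fell by 1.21 at E40 (SE 0.22, limma adjusted p 0.00163; as deposited by 1.93, adjusted p 0.0353) and then stood between 33.8 and 74.8 scaled TPM in every library from E50 on. CDON, which also promotes myoblast differentiation, fell by 0.39 (SE 0.10, limma adjusted p 0.0183; 0.162 as deposited), which did not pass without E33 replicate 2 or without E40 replicate 1. Of 54 genes of this list tested, 23 were lower and 3 higher at E40, beside 10.9% and 10.1% of all genes, with a median of -0.37; as deposited 14 were lower and 0 higher, beside 4.66% and 0.21%. At E60 27 were lower and 4 higher, with a median of -0.42, beside 12.5% lower and 12.6% higher of all genes. The counts at E60 with TPM as deposited were 10 lower and 0 higher, beside 3.71% and 1.46% of all genes.

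Axon guidance, the ligands and receptors that steer growing nerves, gave 4 of the 35 genes with an E33 peak, a share of 11.4% that is close to the 11.0% of all: the ephrin ligands EFNA5 and EFNB3, the semaphorin SEMA3E and the Slit receptor ROBO2. EFNB3 was at 12.9, 12 and 10.2 scaled TPM at E33, listed at 0 in E40 replicate 1 and at 1.53 and 1.75 in the other two, and listed at 0 in all 3 libraries of E95. EFNA5 fell by 1.05 at E40 (SE 0.13, limma adjusted p 9.12e-05; as deposited by 1.71, adjusted p 0.0248) and again by 0.70 at E50 against E40 (adjusted p 0.0189 with limma; 0.769 as deposited). The fall at E50 did not pass without E40 replicate 2 or 3 or without E50 replicate 1 or 3. Of 59 guidance genes tested, 27 were lower and 4 higher at E40, beside 10.9% and 10.1% of all genes, with a median of -0.49; as deposited 16 were lower and 0 higher, beside 4.66% and 0.21%. At E60 29 were lower and 8 higher, with a median of -0.53, beside 12.5% lower and 12.6% higher of all genes. The counts at E60 with TPM as deposited were 17 lower and 0 higher, beside 3.71% and 1.46% of all genes.

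Neural markers fell beside these genes. Of 26 neural markers, 22 were in the expression files, 4 had an E33 peak, and STMN2 and GAP43, proteins of growing axons, were in the set. STMN2 was at 8.30, 10.7 and 9.88 scaled TPM at E33, 2.16, 3.42 and 3.95 at E40, 0.935, 1.01 and 1.11 at E50 and at most 0.288 later, a fall of 1.37 at E40 (SE 0.15, limma adjusted p 2.97e-05; as deposited by 2.01, adjusted p 0.00298) and of 1.02 at E50 (adjusted p 0.00411 in limma; 0.769 as deposited). The summed level of the 22 markers was 159 to 231 scaled TPM at E33, 62.0 to 66.8 at E40, 49.8 to 59.0 at E60 and 21.9 to 25.8 at E95. At E33 0 of the 22 were listed at 0 in all libraries and 3 had a mean below 1 TPM; at E95 PRPH and FABP7 were listed at 0 in all 3 libraries and 18 were below 1 TPM. Of the 11 neural markers tested, 9 were lower and 1 higher at E40 (beside 10.9% lower and 10.1% higher of all genes; 7 and 0 as deposited, beside 4.66% and 0.21%), with a median of -1.39. The part of nerve tissue in the change of the neural and guidance genes was not tested. The summed level of cartilage and bone markers was 154 to 208 scaled TPM at E33, 104 to 169 at E40 and 41.6 to 82.5 at E50. It was 68.3 to 220 at E60, 42.9 to 102 at E70 and 82.6 to 106 at E95. Of the 14 tested, 4 were lower and 1 higher at E40 (4 and 0 as deposited), beside the same shares of all genes as for the neural markers. RUNX2, the master factor of bone cells, was in the set and went from 4.43, 3.80 and 4.18 scaled TPM at E33 to 0.250, 0.403 and 0.244 at E40, a fall of 1.98 (SE 0.14, limma adjusted p 9.75e-07; as deposited by 2.59, adjusted p 3.42e-05). Epidermal markers were low throughout, with a sum of 4.70 to 7.26 scaled TPM at E33 and 1 of them tested. Of the endothelial markers, 0 of the 3 with an E33 peak were in the set and 6 of 12 tested were higher and 0 lower at E40 (1 and 0 as deposited), and the receptor EPOR was the erythroid member, at 0.342, 0.411 and 0.518 scaled TPM at E33 and listed at 0 in all 3 libraries of E40, E60 and E95. At E50 it was at 1.24 in replicate 2, above every E33 library, and listed at 0 in the others, and at E70 it was listed at 0 in replicate 1 and at 0.917 and 0.360 in the others.

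Another pair of transcription factors was named for the size of its change. FOXC2, a forkhead factor of mesenchyme and lymphatic vessels, was at 13.5, 9.70 and 13.7 scaled TPM at E33, and at 2.57 in E40 replicate 1 while it was listed at 0 in the other two E40 libraries, a fall of 3.11 (SE 0.60, limma adjusted p 0.00252; as deposited by 3.67, adjusted p 0.00086). BCL11B, a zinc finger factor known from T cells and neurons, stood at 4.24, 3.16 and 3.22 at E33, 3.07, 8.64 and 3.66 at E40 and 1.44, 2.05 and 1.64 at E50. At E40 it did not pass the test (log2 change 0.33, limma adjusted p 0.362). Its E50 fall of 1.07 (SE 0.24, limma adjusted p 0.0437) did not pass as deposited (adjusted p 0.702), and neither without E40 replicate 2, whose value was the highest, nor without E40 replicate 3, E50 replicate 1 or E50 replicate 3.

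Cell cycle genes gave 4 of the 16 with an E33 peak (25%, beside 11.0% of all), and all 4 stayed at 1 TPM or more later: CCND1, which drives entry into the cycle, the factors E2F7 and FOXM1, and the spindle checkpoint kinase BUB1B. BUB1B and FOXM1 had peaks at E40 and E50, E2F7 at E50, and all 4 in PK15. E2F7 was at 4.89, 5.06 and 5.65 scaled TPM at E33, 4.40, 5.87 and 5.31 at E60, 3.31, 4.67 and 3.20 at E70 and 2.32, 1.92 and 1.74 at E95. Its ranges at E33 and E60 overlapped, and every E70 and E95 library was below those of E33. BUB1B was at 4.73, 4.87 and 3.86 at E33, 5.19, 5.40 and 5.17 at E40 and 3.78, 3.67 and 3.64 at E50, and the fall between E40 and E50 of 0.41 (SE 0.09) passed (limma adjusted p 0.0409; 0.769 as deposited), but not when any of the 6 libraries of these stages was left out. Of 46 cell cycle genes tested, 5 were lower and 3 higher at E40, beside 10.9% and 10.1% of all genes, with a median of -0.02; as deposited 0 were lower and 0 higher, beside 4.66% and 0.21%. At E60 17 were lower and 3 higher, with a median of -0.34, beside 12.5% lower and 12.6% higher of all genes. The counts at E60 with TPM as deposited were 0 lower and 0 higher, beside 3.71% and 1.46% of all genes.

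FKBP5, a chaperone partner of steroid receptors, rose and fell again while its peak remained at E40 and E50. It was at 1.57, 1.52 and 1.44 scaled TPM at E33, 5.86, 5.05 and 4.96 at E40, 2.32, 3.35 and 3.35 at E50 and at most 1.22 at E70 and E95. The rise of 1.32 at E40 (SE 0.13, limma adjusted p 1.41e-05) did not pass as deposited (0.87, adjusted p 0.174), and neither did the fall of 0.66 at E50 (limma adjusted p 0.0287; 0.769 as deposited), which did not pass either when any library of these stages other than E50 replicate 2 was left out. The whole E33 peak, 151 bases near the stop codon, lay in an E40 peak.

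**Figure D5:**
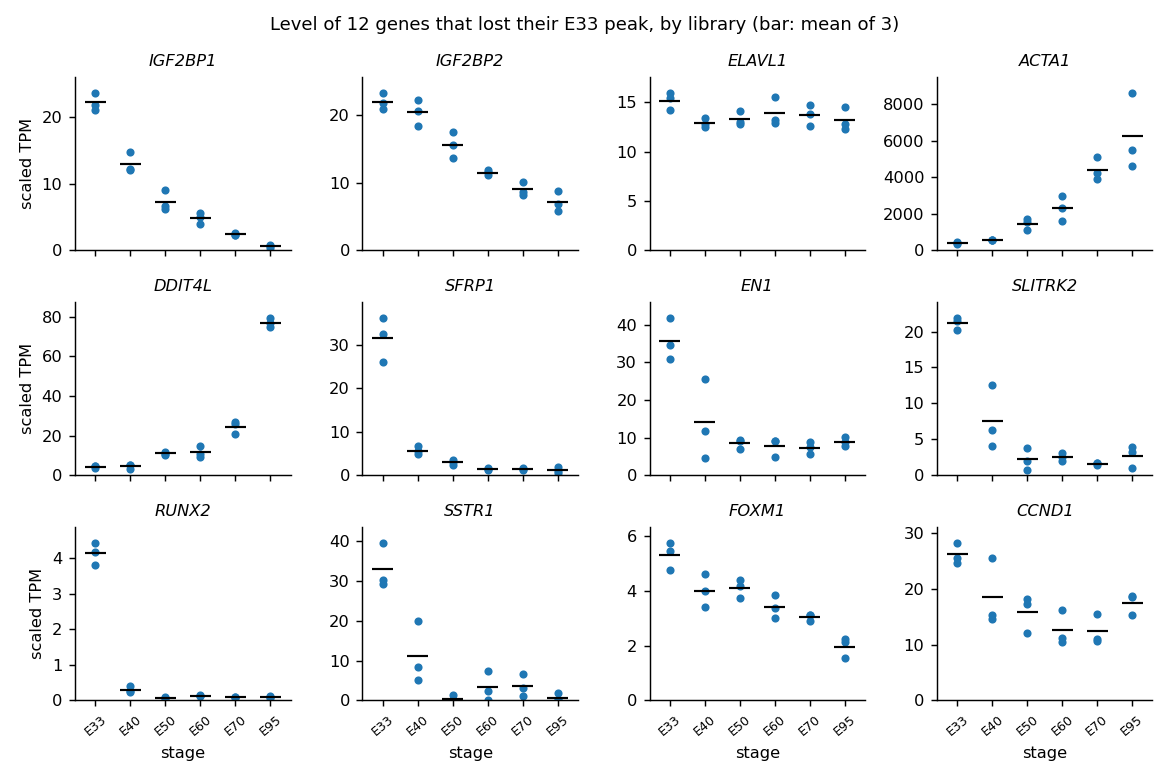
Scaled TPM (vertical axes, each from 0) of 12 genes without a late peak at the 6 stages (horizontal axis); points are the 3 input libraries and bars their mean. IGF2BP1, IGF2BP2, SFRP1, SLITRK2 and RUNX2 have their highest mean at E33, ELAVL1 stays between 12.3 and 15.9, and ACTA1 and DDIT4L have theirs at E95.

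At the other end, ACTA1, RPL6, RPS13, SPSB2 and MAP1LC3A were among the still-expressed genes with the highest late levels. RPL6 and RPS13 encode ribosomal proteins, whose many near-identical pseudogenes make the assignment of their reads uncertain. RPL6 was at 168, 178 and 199 scaled TPM at E33 and 220, 174 and 195 at E60, with overlapping ranges, and its stronger E33 peak had a fold of 2.14. SPSB2, an adaptor of a ubiquitin ligase, was at 75.8, 62.0 and 65.6 at E33 and 142, 195 and 111 at E95, with a peak of fold 1.61. For MAP1LC3A, an autophagosome protein, the change of -0.84 at E40 (SE 0.27) passed on scaled TPM (limma adjusted p 0.0383) but not as deposited (0.0756), nor when any library of these stages other than E33 replicate 2 was left out. The highest E33 folds of these 5 genes, 1.43 to 2.14, all lay under the median fold of 3.21 of the 619 peaks.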

How the data were processed

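TPM values per gene and library were quantified by the authors, with 1 file for each of the 18 muscle input libraries, and the authors deposited 8 peak lists with a fold enrichment ratio and a p-value per peak. Trimmomatic, HISAT2 and Sscrofa11.1 are named in the submitters' processing notes; the quantifier, the peak caller and any pooling of samples before peak calling are not given in the sources used here. The PK15 input levels were not analysed here.

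Peaks were matched to genes by the gene of each entry, and positions by an overlap of at least 1 exonic base (bedtools 2.31.1). Peak midpoints were placed in RefSeq transcripts of Sscrofa11.1. Each library's TPM was divided by its median ratio over genes averaging at least 1 TPM and above 0 in all libraries, log2(scaled TPM + 1) was fitted with limma 3.58.1 (R 4.3.3; trend; 6 stage means, 12 residual degrees of freedom) for genes averaging 1 TPM or more, and p-values were adjusted over all of them. The procedure was tested on simulated data. Intervals are Wilson 95% intervals and cover counting error only.

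The members and the gene lists were chosen with earlier results of these data known. Named genes were members of the m6A and muscle lists and of the other lists, and those ranked by fold, late level, number of peaks, log2 change or nearness to the 1 TPM threshold. Some named genes are not reported here.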

Additional observations from a re-analysis of the deposited data

How the results depend on the processing

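The set depends on the definition. Counting E33 peaks that overlap no late peak gave 1507 peaks in 1238 genes, 1037 of them still expressed; using only E33 peaks above the median fold gave 269, 245 and 144, and counting only late peaks above the median fold gave 2101, 1571 and 1367. A threshold of 5 TPM left 138 still-expressed genes, and leaving out 1 library at a time gave 350 to 365. GGAC was in 61.5% of whole peaks. The count of members called at E40 against E33 was 107 with TPM as deposited, 93 of the 268 tested with a mean of at least 5 TPM, 112 to 187 when 1 library was left out, and 191 without E40 replicate 2 and E50 replicate 3. Over all genes the count moved too, from 2798 in the main fit to 649, 1818, 1636 to 3270 and 3472 in these settings. At E50 against E40 the member count was 0 with TPM as deposited, 7 of 268 with at least 5 TPM, 0 with only the 6 libraries, 2 without E40 replicate 2 and E50 replicate 3, and 4 to 25 when 1 library was left out. Over all genes it went from 206 in the main fit to 1, 131, 10, 37 and 54 to 365. At E60 against E33 the member count was 112 with TPM as deposited, 108 of 268 with at least 5 TPM, and 189 to 206 when 1 library was left out. Over all genes it went from 3339 in the main fit to 690, 2080 and 2616 to 2909. With a replicate block the member counts were 164, 12 and 213, beside 2556, 118 and 3172 over all genes. Same-numbered input libraries did not deviate together (correlations of -0.12 to 0.06), but 3 libraries per stage cannot exclude a shared litter or batch. Of the values of named genes under the alternatives, 1948 stayed called or not called as before, 13 passed newly, 133 no longer passed and 0 turned direction among called values. Values that were not called could change sign. The E40 change of HARBI1, for example, ran from -0.17 to 0.28 when 1 library was left out. Depth is unknown, so the counting error of low TPM values cannot be estimated.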
